A study of Mus musculus with 6 samples.

Results

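The genes described are the 3 lipins (*Lpin1*, *Lpin2*, *Lpin3*), the glycerolipid acyltransferases *Gpam*, *Agpat2*, *Dgat1*, *Dgat2* and *Mogat1*, and the microsomal triglyceride transfer protein gene *Mttp*, 9 of the 16123 genes of the deposited table. They were chosen by gene name, with earlier results of these samples known, and *Lpin1* is among the genes that the study selected on their RNAseq ratio. All 9 were in the table, and all 9 averaged at least 10 over both genotypes, as 11367 genes did. Liver RNA of male mice was sequenced by RNAseq as 3 WT and 3 KO libraries, each a pool of 3 mice. The labels give the strain as C57BL/6Rj for WT and C57BL/6JRj-Txndc5<em2Mdnp>/Ciba for KO, whereas the study names C57BL/6J as the background. The KO line descends from 1 male founder whose *Txndc5* exon 3 was deleted with CRISPR/Cas9. Per the study, mice of both genotypes came from heterozygous crosses. Mice of both genotypes, 2 months old when the diet began, ate a purified chow diet for 4 weeks, and both were fasted for 16 h before sacrifice. The deletion is constitutive, so that the liver is not the only organ without TXNDC5.

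Triglyceride is built in the endoplasmic reticulum by adding acyl chains to glycerol 3-phosphate. GPAM, an enzyme of the outer mitochondrial membrane, adds the first chain, AGPAT2 the next, and the lipins then remove the phosphate of phosphatidate to give diacylglycerol, which DGAT1 or DGAT2 turns into triglyceride. MOGAT1 reaches diacylglycerol by another route, from monoacylglycerol. MTTP, which works as a dimer with the protein disulfide isomerase P4HB, loads triglyceride onto apolipoprotein B for secretion in very low density lipoproteins (VLDL). Lipin 1 is also known as a nuclear partner of PPARα and PGC-1α in fasted liver. TXNDC5 belongs to the same family of disulfide isomerases as P4HB.

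The lipins share their catalytic site, a DXDXT motif of the haloacid dehalogenase phosphatases, and the coding bases around it are shown because they tell how far reads of the 3 genes can be told apart. In the following stretches of 60 bases, read 5′ to 3′ on the coding strand from GENCODE M21 transcripts, capitals mark the 15 bases of the motif.
*Lpin1*: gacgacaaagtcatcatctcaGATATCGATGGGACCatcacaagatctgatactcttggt
*Lpin2*: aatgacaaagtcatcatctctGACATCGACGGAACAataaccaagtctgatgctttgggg
*Lpin3*: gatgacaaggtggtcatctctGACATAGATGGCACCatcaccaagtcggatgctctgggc
These capitals lie at chr12:16547494-16547508 on the minus strand for *Lpin1* (exon 16 of 21), at chr17:71243414-71243428 on the plus strand for *Lpin2* (exon 15 of 20) and at chr2:160903729-160903743 on the plus strand for *Lpin3* (exon 15 of 20), all coding, in GRCm38. In this stretch *Lpin1* and *Lpin2* had 45 of 60 bases in common (75.0%), and *Lpin2* and *Lpin3* had 48 (80.0%). Over whole transcripts, the longest run of bases common to any pair among the 9 genes was 24, between *Lpin1* and *Lpin3*, well under the 100 bases of a read. In GENCODE M21, exons of other genes on the opposite strand covered 188 bases of the *Mogat1* transcript (*BC035947*, 15.3% of its bases), 132 of *Mttp* (*Gm43691*) and 64 of *Agpat2* (*Egfl7*). The sources used here do not say whether reads were counted by strand, so that reads of those bases cannot be assigned to a gene.

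The 6 libraries held between 44040160 and 46050030 clean reads, of which 91.6% to 93.7% mapped to the genome. The table gives 1 value per genotype, on the scale of reads divided by the size factor of the library, so that it holds no spread between pools. That value is not the mean over the libraries of that genotype alone. The authors' value of *Txndc5* itself was 2697 for WT and 90.8 for KO, counted over the whole gene and not over the deleted exon alone. For weakly expressed genes the whole reads of each library could be recovered from these values, and the libraries are then called A, B and C in the order of their size factors (1.31, 1.04 and 0.886 in KO, 1.22, 0.879 and 0.818 in WT), since they carry no pool number. KO library A and WT library A stood apart from the rest. Together they were the 2 highest of the 6 libraries in 31.8% of 3307 genes with recovered reads, where the other 14 pairs of libraries were so in 3.11% to 8.83% of the genes. Hepatocyte markers were the most abundant, with *Alb* at 1329546 in WT and 1332576 in KO. The median log2 ratio of KO over WT was −0.20 for 5 hepatocyte markers, 0.21 for 5 Kupffer cell markers, −0.089 for 4 endothelial markers and −0.21 for 4 stellate cell markers. All 6 red cell markers had a ratio above 1, with a median log2 ratio of 0.67. The authors' values of the 4 adipocyte markers found in the table summed to 52.9 in WT and 92.8 in KO. Their recovered reads, normalized, summed to 280 in KO library A and to between 4.08 and 61.8 in the other libraries. The part of these cells in the values of the 9 genes was not tested.

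Of the 9 genes, 3 were higher in KO by 1.5-fold or more, *Lpin1*, *Mogat1* and *Gpam*, where 1.43% of all genes averaging at least 10 were (163 of 11367). None of the 9 genes was lower by as much (0 of 9, against 5.34% of all genes). Ratios are written as the log2 of KO over WT after adding a pseudocount of 1 to both values. In 7 genes the log2 ratio was above 0, and in *Agpat2* and *Dgat1* it was below 0. Their median log2 ratio was 0.31, and the median of all 11367 genes was −0.047. *Gpam* lay just inside the limit of 1.5-fold, and the next gene was *Mttp* at 1.26-fold. These counts are a description of genes chosen with the same ratios known, and no test was made of them. In bulk liver, fewer cells of a type and less RNA per cell cannot be told apart.

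**Figure D1:**
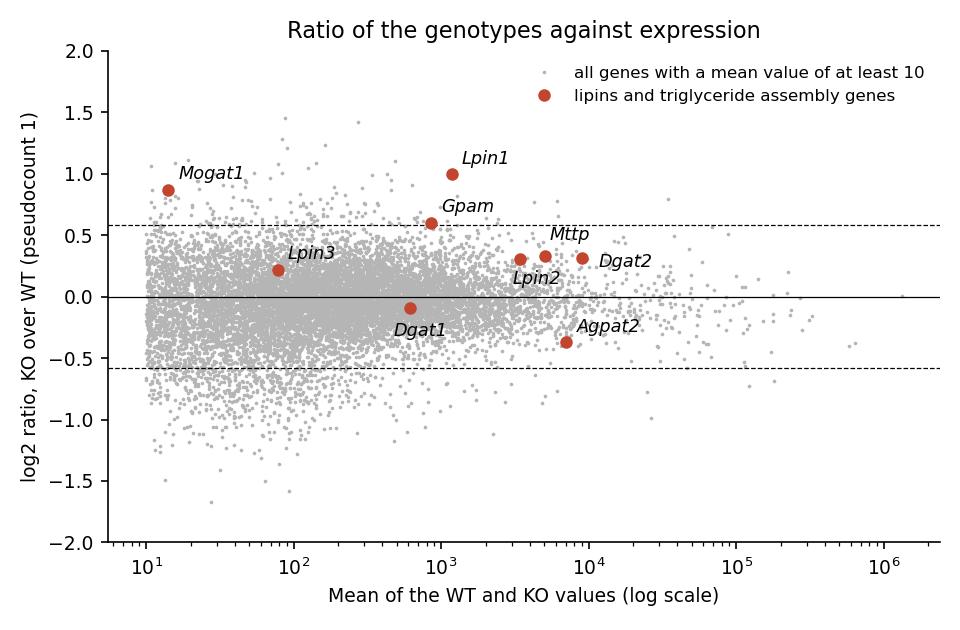
Log2 ratio of KO over WT (pseudocount 1) against the mean of both genotype values on a log scale, for 11367 genes in grey and the 9 genes in red, with dashed lines at 1.5-fold (4 genes fall outside the axis). *Lpin1* at 0.996, *Mogat1* at 0.87 and *Gpam* at 0.60 lie above the upper line, and *Agpat2* at −0.37 is the lowest of the 9.

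Levels were compared between genes as the value per kb of the gene model. In WT liver *Agpat2* had the highest level with 5056 per kb, followed by *Dgat2* with 3575 and *Mttp* with 1137. *Lpin2* (541), *Dgat1* (358), *Gpam* (175) and *Lpin1* (141) came next, and *Lpin3* (21.1) and *Mogat1* (7.97) were the lowest. In KO liver *Dgat2* (4432 per kb) stood above *Agpat2* (3910), and *Lpin1* (281) above *Gpam* (266), while the other 5 genes kept their place. With 1 value per genotype it cannot be said which neighbours in this order differ beyond the spread between pools.

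**Figure D2:**
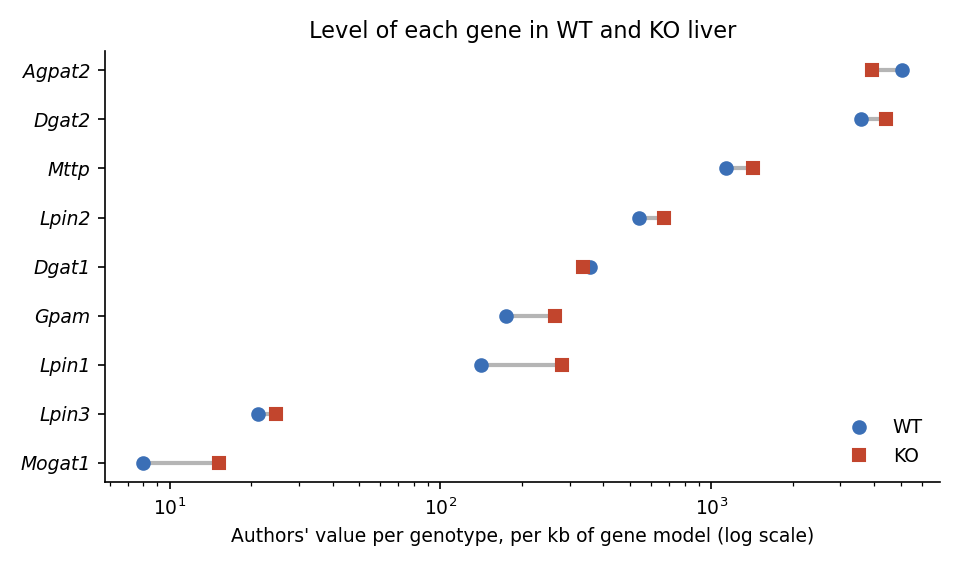
The authors' value of each genotype divided by the length of the gene model in kb, on a log scale, with WT as blue circles and KO as red squares. The 9 genes span from 7.97 (*Mogat1*) to 5056 (*Agpat2*) in WT, and the widest gaps between genotypes are those of *Lpin1* and *Mogat1*.

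*Lpin1* (NCBI Gene 14245, chromosome 12 from 16535669 to 16610966 in GRCm38, minus strand) encodes lipin 1, a phosphatidate phosphatase. The authors' value went from 786 (WT) to 1568 (KO), with a log2 ratio of 0.996 and a 1.99-fold difference. The reads of single libraries could not be recovered at this abundance. Neither the spread of *Lpin1* between these libraries nor the weight of either library A in it is therefore known. The study also measured *Lpin1* by RT-qPCR in RNA of single mice, of the same groups as those pooled, and reported it as higher in KO. For that, *Lpin1* was taken from genes that had passed a limit on the RNAseq ratio. It was the 19th highest ratio among the 11367 genes, so that 0.158% of them were higher. Skeletal muscle, which is known to hold much lipin 1, left few reads in these libraries. The normalized reads of the 3 muscle markers found in the table summed to 4.57, 7.72 and 30.5 in KO libraries A, B and C and to 1.63, 10.2 and 2.45 in WT libraries A, B and C. KO library C was thus the highest for muscle. The 4 adipocyte markers found in the table summed to 280, 61.8 and 13.5 normalized reads in KO libraries A, B and C. In WT libraries A, B and C they summed to 4.08, 60.3 and 17.1. The part of muscle or of adipocytes in the *Lpin1* values was not tested.

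*Lpin2* (NCBI Gene 64898, chromosome 17 from 71182560 to 71249817, plus strand) encodes lipin 2, the most abundant lipin in these livers. Its value went from 3082 (WT) to 3810 (KO), with a log2 ratio of 0.31, and 8.84% of all genes had a higher ratio. Of the summed lipin level per kb, *Lpin2* made up 77.0% in WT and 68.6% in KO, *Lpin1* 20.02% and 28.8%, and *Lpin3* 3.01% and 2.53%. Per kb *Lpin2* was 3.84 times as abundant as *Lpin1* in WT and 2.38 times in KO. The summed lipin level was 703 per kb in WT and 975 per kb in KO, a log2 ratio of 0.47.

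*Lpin3* (NCBI Gene 64899, chromosome 2 from 160880670 to 160906002, plus strand) encodes lipin 3, and its reads could be recovered in every library. Its sum of normalized reads over the 6 libraries lies between 400 and 600, where 482 of 979 genes were resolved. KO libraries A, B and C held 69, 85 and 106 reads, and WT libraries A, B and C held 69, 64 and 68. Normalized by the size factors these were 52.6, 82.1 and 120 in KO and 56.3, 72.8 and 83.2 in WT. The groups overlap, since KO library A was the lowest of the 6 and KO library C the highest. The mean ± SD of 3 libraries was 84.8 ± 33.6 for KO and 70.8 ± 13.5 for WT, and the log2 ratio of 0.26 was smaller than the spread between libraries. Its direction rested on KO library C, without which the log2 ratio was −0.071. Without both libraries A it was 0.37. The authors' values of *Lpin3*, 71.8 for WT and 83.7 for KO, have a log2 ratio of 0.22.

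**Figure D3:**
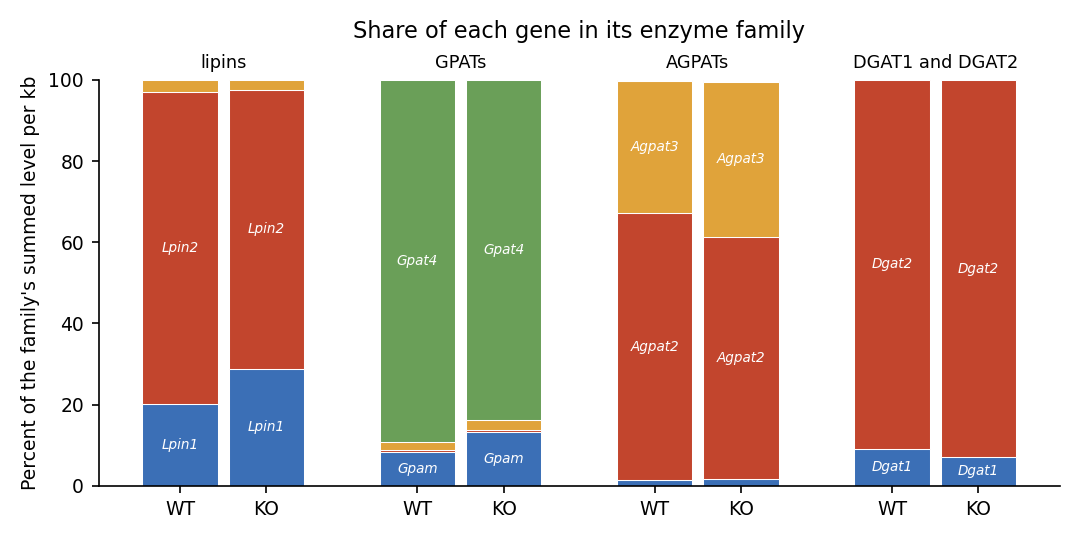
Stacked bars of the percent that each gene contributes to the summed level per kb of its enzyme family, from the authors' values, for WT and KO (small parts carry no name). The part of *Lpin1* is 20.02% in WT and 28.8% in KO, and that of *Gpam* 8.397% and 13.1%.

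*Gpam* (NCBI Gene 14732, chromosome 19 from 55067268 to 55127238, minus strand) encodes the mitochondrial glycerol-3-phosphate acyltransferase, which commits glycerol 3-phosphate to glycerolipid synthesis. The authors' value went from 674 (WT) to 1023 (KO), 1.52-fold higher with a log2 ratio of 0.60, and 1.29% of all genes had a higher ratio. Among the 4 glycerol-3-phosphate acyltransferases *Gpam* contributed 8.397% of the level per kb in WT and 13.1% in KO. *Gpat4*, which encodes an enzyme of the endoplasmic reticulum, contributed 89.2% and 83.7%. The summed level of the 4 genes had a log2 ratio of −0.044.

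*Agpat2* (NCBI Gene 67512, chromosome 2 from 26593057 to 26604417, minus strand) encodes the acyltransferase that makes phosphatidate, and it had the lowest ratio of the 9 genes. Its value went from 7958 (WT) to 6155 (KO), 1.29-fold lower with a log2 ratio of −0.37. Of all genes 13.0% had a lower ratio. *Egfl7*, whose exons overlap it on the other strand, had values of 285 and 273. The AGPAT family as a whole had a log2 ratio of −0.23 in level per kb, with *Agpat2* at 65.8% of it in WT and 59.5% in KO, and *Agpat3*, its relative, at 32.5% and 38.4%.

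*Dgat1* and *Dgat2* encode unrelated enzymes for the same last step of triglyceride synthesis. *Dgat2* (NCBI Gene 67800, chromosome 7 from 99153658 to 99182719, minus strand) went from 8048 (WT) to 9977 (KO), with a log2 ratio of 0.31, and 8.55% of all genes were higher. *Dgat1* (NCBI Gene 13350, chromosome 15 from 76502015 to 76511953, minus strand) went from 636 (WT) to 594 (KO), with a log2 ratio of −0.097, close to the −0.047 of the median gene. Per kb *Dgat2* was 9.99 times as abundant as *Dgat1* in WT and 13.2 times in KO.

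*Mogat1* (NCBI Gene 68393, chromosome 1 from 78510991 to 78538173, plus strand), which encodes the monoacylglycerol acyltransferase, was the weakest of the 9 genes. KO libraries A, B and C held 19, 19 and 26 reads, and WT libraries A, B and C held 15, 7 and 2. Normalized in the same way these were 14.5, 18.3 and 29.4 in KO and 12.2, 7.96 and 2.45 in WT. Every KO library lay above every WT library, a pattern that 3.08% of 3307 genes of similar abundance had (102 genes), and the gap between the nearest libraries, both of them libraries A, was small. The mean ± SD of 3 libraries was 20.7 ± 7.72 for KO and 7.55 ± 4.91 for WT. The log2 ratio of these means was 1.35. On the log2 scale the SDs of both groups, combined as the root of their summed squares, came to 1.12. That value describes the spread of single libraries and is not an error of the ratio, so that no test follows from it. The 24 reads of the WT libraries set a wide counting error. Leaving out each library in turn gave log2 ratios from 0.97 (without WT library C) to 1.81 (without WT library A), and leaving out both libraries A gave 2.002. The authors' values of 9.70 in WT and 18.6 in KO have a smaller log2 ratio, 0.87.

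Adipocytes are a known site of *Mogat1*, and adipocyte markers were read unevenly. *Adipoq*, the gene of adiponectin, had 61, 4 and 1 reads in KO libraries A, B and C and 0, 2 and 0 in WT libraries A, B and C. *Plin1*, which encodes the perilipin of adipocyte lipid droplets, had 40, 7 and 1 reads in KO and 0, 4 and 0 in WT. Of the 5 adipocyte markers 4 were found in the table, and their summed normalized reads ranged from 13.5 to 280 in the KO libraries and from 4.08 to 60.3 in the WT libraries. KO library A, the highest by far for these markers, was the lowest of the KO libraries for *Mogat1*. KO library C, the highest for *Mogat1*, was the lowest of the KO libraries for the markers. Without KO library A the log2 ratio of *Mogat1* was 1.54, and with all libraries it was 1.35. The part of adipocytes in the *Mogat1* values was not tested.

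**Figure D4:**
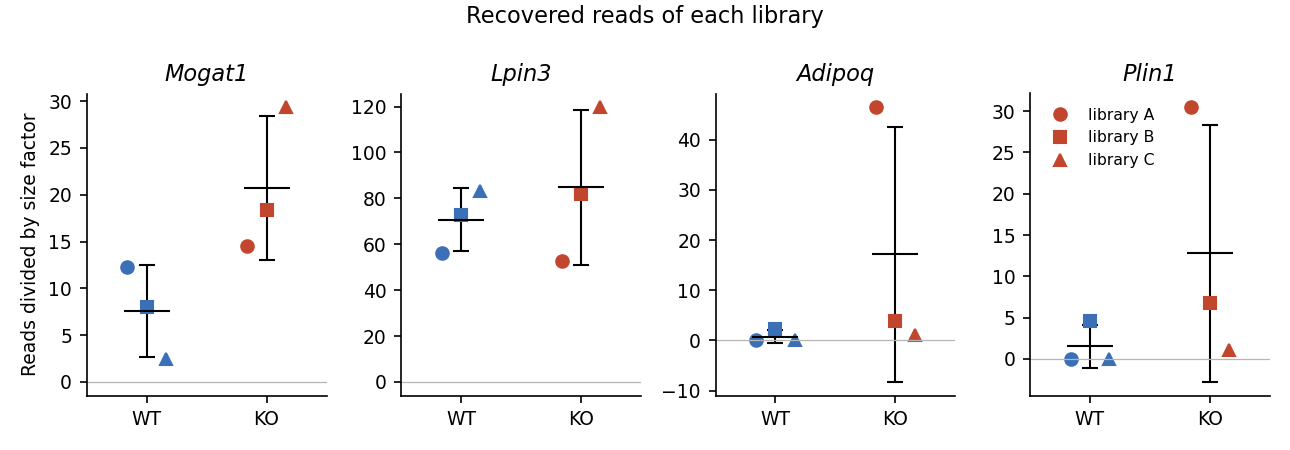
Reads divided by the size factor in each recovered library of WT (blue) and KO (red) for *Mogat1*, *Lpin3* and the adipocyte markers *Adipoq* and *Plin1*, with a circle, square and triangle for libraries A, B and C and black bars for mean ± SD (n = 3 libraries). The KO libraries lie at 14.5 to 29.4 and the WT libraries at 2.45 to 12.2 for *Mogat1*, while both markers are highest in KO library A (the lower ends of their KO bars lie below 0).

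*Mttp* (NCBI Gene 17777, chromosome 3 from 138089854 to 138144968, minus strand) encodes the lipid-transferring subunit of the microsomal transfer protein. Its value went from 4503 (WT) to 5656 (KO), 1.26-fold higher with a log2 ratio of 0.33, and 7.63% of all genes had a higher ratio. *P4hb*, the disulfide isomerase that forms the other subunit, had values of 26701 and 28750, a log2 ratio of 0.11. *Apob*, the gene of the apolipoprotein that receives the lipid, had 35805 and 24961, and so a log2 ratio of −0.52. The ratios of *Mttp* and *Apob* thus had opposite signs. Of the 8 genes listed as VLDL assembly partners 0 passed 1.5-fold in either direction, and their median log2 ratio was −0.077.

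The promoters of *Lpin1*, *Gpam* and *Mogat1*, the genes past 1.5-fold, are shown as the 250 bases before the start of transcription in RefSeq (GRCm38.p6), 5′ to 3′ on the strand of the gene. They lie at chr12:16610967-16611216 (minus strand), chr19:55127239-55127488 (minus strand, the outer of 2 starts) and chr1:78510810-78511059 (plus strand). Capitals mark matches to the motifs named after them.
*Lpin1*: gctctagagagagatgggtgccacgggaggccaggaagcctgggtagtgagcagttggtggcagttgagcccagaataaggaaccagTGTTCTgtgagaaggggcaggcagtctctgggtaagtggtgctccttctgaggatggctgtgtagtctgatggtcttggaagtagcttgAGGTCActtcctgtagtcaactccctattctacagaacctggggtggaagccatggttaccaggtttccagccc
*Gpam*: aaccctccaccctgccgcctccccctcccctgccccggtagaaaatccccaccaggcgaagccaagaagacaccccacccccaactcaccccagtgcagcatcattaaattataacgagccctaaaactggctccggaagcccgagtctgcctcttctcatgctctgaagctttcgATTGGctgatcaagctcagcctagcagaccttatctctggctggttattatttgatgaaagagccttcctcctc
*Mogat1*: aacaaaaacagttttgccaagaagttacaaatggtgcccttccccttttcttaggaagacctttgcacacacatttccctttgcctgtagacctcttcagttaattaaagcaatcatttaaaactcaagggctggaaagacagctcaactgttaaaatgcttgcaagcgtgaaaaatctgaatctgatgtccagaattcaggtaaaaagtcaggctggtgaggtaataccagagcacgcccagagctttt
On both strands, the exact letters of 8 motifs were searched in these 250 bases of 11 promoters. They belong to 7 of the 9 genes, all but *Dgat1* and *Dgat2*, and some genes have more than 1. The shares given are of 32851 promoters of the same table, not of genes. In the *Lpin1* promoter the letters TGTTCT, an arm of the glucocorticoid response element, began 163 bases before the start, and AGGTCA, an arm of nuclear receptor sites, 74 bases before it. TGTTCT was also found at *Mttp* and at 1 start each of *Lpin2* and *Lpin3*, which have more than 1, and AGGTCA at the other start of *Gpam*. Of all promoters 16.1% held TGTTCT and 14.02% held AGGTCA. In that of *Gpam* the CCAAT box stood 74 bases before the start on the opposite strand, a motif also found at *Lpin2* and held by 33.8% of all promoters. In that of *Mogat1* none of the 8 motifs was found. The E-box CACGTG (6.02% of all promoters) was found among these genes at *Lpin2* only, 9 bases before 1 of its 3 starts. The GC box GGGCGG (32.7% of all promoters) was found at *Agpat2*, *Gpam* (its other start), *Lpin2* and *Lpin3*. The cAMP response element TGACGTCA (1.55% of all promoters), the TATA box with the letters TATAAA (12.4%) and the sterol regulatory element with the letters TCACCCCAC (0.496%) were found at none of the 7 genes. Sites that differ from the letters searched were not counted. No motif overlapped another in the 3 promoters shown.

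Other genes around triglyceride synthesis were followed as 8 lists, which hold 73 genes, 69 of them in the table and 65 averaging at least 10. Of these 65 genes 2 were higher in KO by 1.5-fold or more and 2 were lower, against 1.43% and 5.34% of all genes, and their median log2 ratio was −0.0064. Among the 9 other glycerol-3-phosphate and acylglycerol-phosphate acyltransferases 0 passed 1.5-fold. The most abundant were *Agpat3* with 8580 in WT and 8667 in KO, and *Gpat4* with 7327 and 6674. The sterol acyltransferase genes *Soat2* (332 and 361) and *Soat1* (10.9 and 12.4) did not pass it either. Of the membrane lipid phosphatases, which also act on phosphatidate, 0 of 5 passed. *Plpp3* had 2206 in WT and 2681 in KO, and *Plpp2* 409 and 374.

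The 8 genes of lipin regulators and partners had a median log2 ratio of −0.32, with 3 genes above 0 and 5 below. *Creb1*, a transcription factor of the cAMP response, was the 1 gene of the list past 1.5-fold, going from 51.3 (WT) to 33.3 (KO), a log2 ratio of −0.61. Its recovered reads were 60, 10 and 28 in KO libraries A, B and C and 160, 19 and 12 in WT libraries A, B and C. The groups overlap, and the 2 libraries A were the highest for *Creb1* as they were for many genes. The log2 ratio of its recovered reads, −0.92, rested on WT library A: without that library it was 0.65, and without both libraries A 0.18. After centring on the median gene the deposited ratio was −0.56, which does not reach 1.5-fold. *Ppara*, the nuclear receptor of fatty acid oxidation, went from 3501 (WT) to 4872 (KO), a log2 ratio of 0.48. *Srebf1*, which encodes the lipogenic factor SREBP1, had 1124 and 1491 (log2 ratio 0.41).

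In the list of glycerol 3-phosphate and acyl-CoA supply 1 of 10 genes passed 1.5-fold. *Acsl4*, an acyl-CoA synthetase that prefers arachidonic acid, went from 227 (WT) to 116 (KO), a log2 ratio of −0.97. The reads of single libraries were not recovered for it. The most abundant of the list were *Slc27a2*, a fatty acid transporter with 35643 and 39245, and *Acsl1*, the main hepatic acyl-CoA synthetase, with 32596 and 38765 (log2 ratio 0.25). In the phospholipid branch, which takes diacylglycerol and phosphatidate away from triglyceride, 0 of 11 genes passed, and the median log2 ratio was −0.058. *Etnk2*, an ethanolamine kinase, had 12024 and 13595, and *Pcyt2*, which activates phosphoethanolamine, 7897 and 6707. Among the 12 genes responsive to fasting and glucocorticoids 2 passed, *Fkbp5* from 593 to 908 (log2 ratio 0.61) and *Igfbp1* from 1905 to 2893 (0.60). The list had a median log2 ratio of 0.14, and *Pck1*, an abundant gene of gluconeogenesis (0.28), did not pass.

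**Figure D5:**
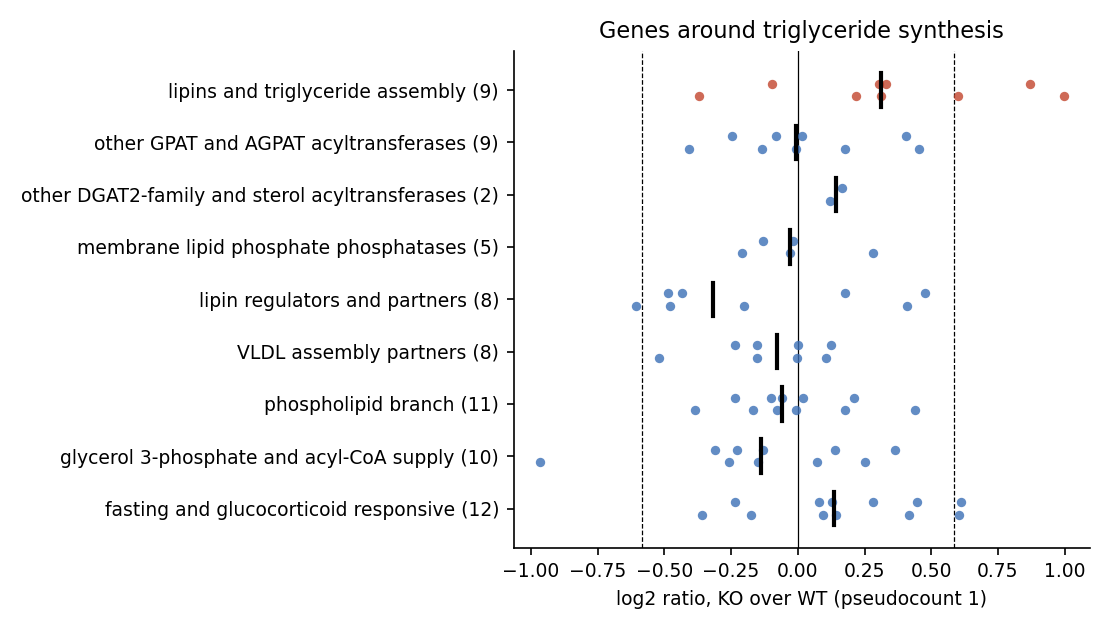
Log2 ratio of KO over WT (pseudocount 1) of each gene averaging at least 10, by list, with the number of genes in brackets, black bars for the median of the list and dashed lines at 1.5-fold. The 9 lipin and triglyceride assembly genes (red) have a median of 0.31, and the medians of the other lists lie between −0.32 and 0.14.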

How the data were processed

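The labels name the genotype and pool number of each library (WT pools 1, 2 and 5, KO pools 2, 3 and 4). The libraries were pools of different animals per the study's methods. The submitters' processing notes name mm10, HISAT2, StringTie, Cufflinks, GATK, Bowtie2 and RSEM without roles, and the file name gives DESeq2. For each gene the authors deposited 1 expression signal per genotype, on the scale of reads divided by size factors. This signal is not the mean of the genotype's own 3 libraries. For *Mogat1* it was 9.70 in WT and 18.6 in KO, where the recovered reads had means of 7.55 and 20.7. The authors also deposited the clean read counts of each library, and percent values of mapping and ribosomal RNA. Columns of the authors' own comparison (fold change, p-value, adjusted p-value and call) were not used.

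Log2 ratios were calculated as log2((KO + 1)/(WT + 1)), and counts were made over genes averaging at least 10. The sum of both values, times 3, is the sum of normalized reads over the 6 libraries. What 1 read is worth was read for each library off the low values that at least 20 genes share, and every set of 6 whole numbers giving a gene's sum, up to 600, was enumerated within 7 units of the 15th significant digit. A gene was resolved where a single set was left, or, for a log2 ratio beyond 0.5, a single set in the deposited direction. Up to a sum of 400, 8063 of 8081 genes were resolved (99.8%), and above it 482 of 979. In simulated data 7734 of 7735 genes were resolved up to a sum of 400 and 642 of 786 above it, all of them rightly. Above 400 the share resolved was larger in the simulation than in the data. The check therefore says less about genes in that range, such as *Lpin3* and *Agpat5*. In resolved genes with sums from 300 to 400 and a log2 ratio beyond 0.3 (280 genes), the ratio of the deposited values was a median 0.814 times that of the recovered reads, so deposited ratios can lie nearer to 0 than those of the reads. Counts of members not overlapping between groups were read against genes with sums from 60 to 400. With values combined over libraries, and members chosen from this contrast, no test was made.

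Positions are from GENCODE M21 and promoters from RefSeq, both GRCm38. Every member was named, with the genes of each list past 1.5-fold and its 2 most abundant, apart from 1 gene that is not reported here. The members and lists were chosen with earlier results of these data known. Splicing events were not used. Python 3.11.15, numpy 2.4.6, pandas 2.3.3 and numba 0.67.0 were used.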

Additional observations from a re-analysis of the deposited data

How the results depend on the processing

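The log2 ratios of all 9 genes kept their sign with a pseudocount of 0.1 and after centring on the median gene (−0.047), moving by 0.06 at most. The genes higher by 1.5-fold numbered 3 also with a pseudocount of 0.1, a minimum mean value of 1, no minimum and centring. They were 4 with the limit lowered to 0.32 on the log2 scale and 0 at 2-fold, since *Lpin1* lies at 1.99-fold. At the lower limit 1 of the 9 genes was lower. For the 65 genes of the pathway lists, the lower limit gave 10 higher and 9 lower, the limit of 2-fold gave 0 higher and 0 lower, and centring left 1 lower, *Acsl4*, with *Creb1* at −0.56. From recovered reads, leaving out each library in turn gave −0.071 to 0.51 for *Lpin3*, negative without KO library C, and 0.97 to 1.81 for *Mogat1*. For *Creb1*, chosen after the data were seen, it gave −1.39 to 0.65, positive without WT library A, and 0.18 without both libraries A. Scaling by the total of recovered reads gave 0.38 for *Lpin3* and 1.61 for *Mogat1*. Leaving out both libraries A, chosen after the data were seen, gave 0.37 for *Lpin3* and 2.002 for *Mogat1*. No paired analysis was possible because the WT and KO pools share a single number and the recovered libraries carry none. For 7 of the 9 genes the reads of each library were not recovered, so that neither their spread between libraries nor the weight of 1 library is known. The same holds for *Acsl4*, *Fkbp5* and *Igfbp1*.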

Other observations

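Reads were also recovered for weakly expressed relatives of the genes above, named after their values were seen. *Mogat2*, the intestinal monoacylglycerol acyltransferase, had 1, 8 and 2 reads in KO libraries A, B and C and 3, 3 and 4 in WT libraries A, B and C, and the groups overlap. *Awat2*, a wax alcohol acyltransferase related to DGAT2, had 11, 11 and 12 reads in KO and 8, 9 and 2 in WT, again overlapping after division by the size factors. *Plpp7*, listed with the membrane lipid phosphatases, had 16, 11 and 10 reads in KO and 8, 8 and 7 in WT. Its normalized reads were 10.6 to 12.2 in KO and 6.53 to 9.10 in WT and did not overlap, a pattern found in 3.08% of 3307 genes with sums from 60 to 400, just above the sum of 58.3 of *Plpp7*. *Gpat2*, the testis form of glycerol-3-phosphate acyltransferase, had 36, 30 and 16 reads in KO and 29, 19 and 29 in WT. *Agpat5* had 118, 81 and 56 reads in KO and 116, 64 and 53 in WT, so that its normalized means of 77.1 ± 13.4 and 77.4 ± 15.5 (SD, n = 3 libraries) differed by far less than their spread. Like that of *Lpin3*, its sum of normalized reads lies above 400, where fewer genes were resolved.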
